A study of Bos taurus with 6 samples.

Results

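Cultured fibroblasts were compared with sperm at the CpGs of the 29 bovine autosomes. A CpG position was kept when it was covered by 5 to 500 reads in each of the 4 libraries concerned, 2 of sperm and 2 of fibroblasts, which left 1711747 positions out of the 3210238 covered to this extent in at least 1 of them (53.3%). The whole series comprises 6 libraries, the 2 others being from monocytes, and 1542060 of the positions kept here were also covered by 5 to 500 reads in both monocyte libraries. The sperm libraries were each made from a commercial Holstein semen straw, from a different bull, and the fibroblast libraries from primary ear skin cultures of 2 Holstein females, grown over several passages in medium with fetal calf serum. No treatment or genetic modification was applied to either group. Sex, culture and cell type therefore differ together between the groups and cannot be told apart. Methylation was measured by reduced representation bisulfite sequencing (RRBS), in which the enzyme MspI cuts methylated and unmethylated CCGG sites alike and bisulfite then converts the unmethylated cytosines. The methylation of a CpG is the percentage of its reads that kept a cytosine.

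In mammals, DNA methylation is found mostly at CpGs. Isolated CpGs are usually methylated, whereas the dense clusters called CpG islands, many of which overlie promoters, are usually unmethylated. Sperm acquire their methylation in the male germline, and the promoters of several germline genes are unmethylated in germ cells and methylated in somatic cells. Cultured fibroblasts are a somatic cell type in which long stretches of partial methylation, first described in fibroblast lines, lie outside the islands.

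Over the positions kept, the median coverage was 15 and 17 reads in the sperm libraries and 20 and 24 reads in the fibroblast libraries, and single CpGs are therefore measured coarsely. Over all positions of each library, coverage of the X chromosome, as a ratio of medians to the autosomes, was 0.556 and 0.60 in sperm and 0.923 and 0.867 in fibroblasts. At positions covered by 5 to 500 reads, the ratio of means was 0.909 and 0.879 in sperm and 1.08 and 1.05 in fibroblasts. The X chromosome was thus less covered in both libraries from bulls than in both libraries from females. The labels could not be checked against the expression of cell type markers, since only methylation was measured. Replicates came from different animals and shared a number only. The replicates of sperm differed by 3.83 points per CpG on average (r = 0.981 across CpGs, which are not independent), those of fibroblasts by 9.03 points (r = 0.934), and the means of the 2 cell types by 21 points (r = 0.701). Replicates were at least 50 points apart at 0.647% of the positions in sperm and at 1.29% in fibroblasts, against 16.5% between the cell types.

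The average level of the autosomes was close in both cell types. With every position counting equally, sperm libraries were at 50.0% and 49.5% and fibroblast libraries at 46.2% and 46.7%. The means were 49.8 ± 0.294% in sperm (SD, n = 2) and 46.5 ± 0.345% in fibroblasts, a difference of -3.27 points, and the libraries of the 2 cell types did not overlap (exact permutation test, two-sided, p = 0.333, which is as low as 2 libraries against 2 can go). Weighted by coverage, the difference turned to 0.328 points, with 44.8% in both sperm libraries against 45.3% and 45.0% in the fibroblast libraries (exact permutation test, p = 0.333). The direction of the average thus rests on how much the deeply covered positions count.

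Behind these close averages, the distributions differed. Sperm CpGs were at one of the 2 extremes, whereas a larger share of CpGs was partially methylated in fibroblasts. Intermediate CpGs (20 to 80% methylation) made up 5.83% and 5.99% of the positions in the sperm libraries and 26.4% and 26% in the fibroblast libraries. Hypermethylated CpGs (over 80%) made up 47.5% and 47.0% in sperm and 32.5% and 33.3% in fibroblasts. Hypomethylated CpGs (under 20%) made up 46.7% and 47.0% in sperm and 41.1% and 40.7% in fibroblasts. The share of positions at exactly 100% was 35.5% and 33.3% in sperm and 13.9% and 12.7% in fibroblasts, and the share at exactly 0% was 39.2% and 38.8% in sperm and 29.1% and 28.1% in fibroblasts. In each of these classes the spread between replicates was smaller than the gap between the cell types. Shares at exactly 0% or 100% also depend on the number of reads, which was lower in sperm (median 15 and 17 against 20 and 24). The part of coverage in these shares was not tested.

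A CpG methylated in sperm and a CpG unmethylated in sperm fared differently in fibroblasts. On summed reads, 802534 CpGs were hypomethylated in sperm, and 77.9% of them were also hypomethylated in fibroblasts, 13.3% were intermediate and 8.81% (70680 CpGs) were hypermethylated. Of the 810674 CpGs hypermethylated in sperm, 55.0% were also hypermethylated in fibroblasts, 38.0% (308240 CpGs) were intermediate, with a median of 61.7% methylation in fibroblasts, and 6.99% (56672 CpGs) were hypomethylated. An opposite state in fibroblasts was therefore less frequent than a partial difference, in both directions. Full methylation in sperm with partial methylation in fibroblasts was the most frequent difference of class. A difference of class is not a test, and 92011 of these CpGs were at 70 to 80% in fibroblasts, just under the limit. By the test described below, 213258 (69.2%) of the CpGs hypermethylated in sperm and intermediate in fibroblasts were called different. For those hypomethylated in sperm and intermediate in fibroblasts, the number was 83814 (78.4%). All CpGs in opposite classes were called. Only 98539 CpGs were intermediate in sperm, and 44.7% of these were hypermethylated in fibroblasts against 12.9% hypomethylated.

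**Figure D1:**
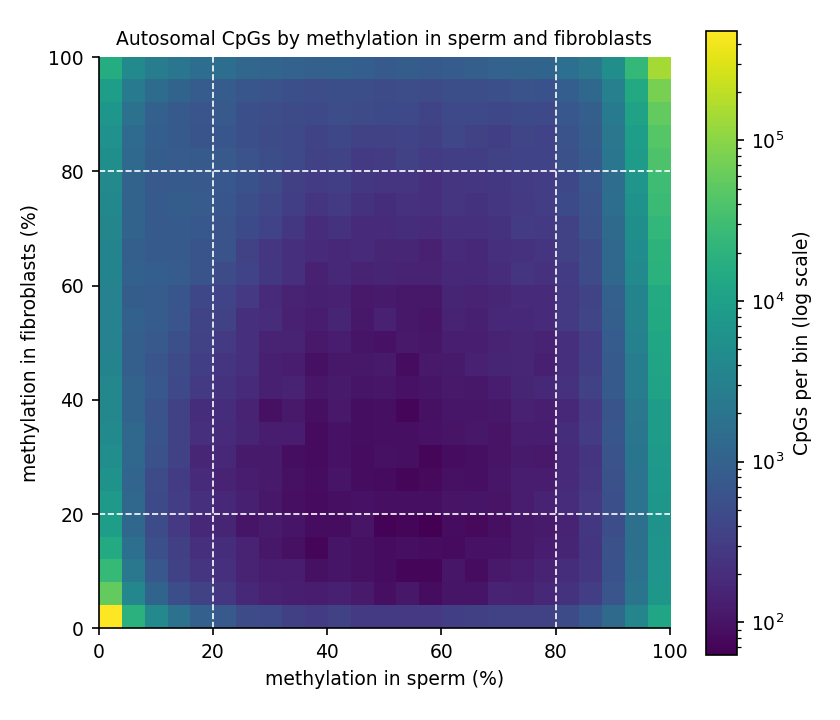
Autosomal CpGs binned by their methylation in sperm (x axis, %) and in fibroblasts (y axis, %), both on the summed reads of 2 libraries. Colour gives the number of CpGs per bin on a log scale, and dashed lines mark 20% and 80%. CpGs lie along the left and right edges, hypomethylated or hypermethylated in sperm, and spread upwards and downwards along these edges in fibroblasts, with few CpGs in the centre.

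Differentially methylated CpGs (DMCs) were those with a difference of at least 25 points between the summed reads and an adjusted p below 0.01 (likelihood-ratio test of a logistic regression, Benjamini-Hochberg adjustment over all 1711747 positions). DMCs numbered 477418, or 27.9% of the positions tested. Sperm was more methylated at 280896 of them (16.4% of positions) and fibroblasts at 196522 (11.5%), that is, 58.8% and 41.2% of the DMCs. Both libraries of one cell type lay above both libraries of the other at 98.6% of the DMCs of each direction. The DMCs were chosen on the reads of these same libraries, so that this share is largely set by the choice. Regardless of any test, both fibroblast libraries lay above both sperm libraries at 17.8% of all positions and below them at 29.7%. The test on summed reads does not hold the variation between animals. The edgeR quasi-likelihood test, which does, called 212396 positions, all of them among the DMCs above, and 52.5% of them were more methylated in fibroblasts. Which direction is the more frequent thus depends on the test, while both directions were found with either test.

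The 2 directions differed in size. DMCs more methylated in fibroblasts rose from a median of 4.35% in sperm to 81.8% in fibroblasts, with a median difference of 64.2 points. The median of these DMCs was 3.57% and 3.85% in the sperm libraries and 82.1% and 83.3% in the fibroblast libraries. For 37.0% of them the difference reached 75 points, and 52.3% were hypermethylated in fibroblasts, the remaining 47.7% being intermediate. DMCs more methylated in sperm fell from a median of 100% to 44.7%, with a median difference of -51.3 points. Their median was 100% in both sperm libraries, and 42.9% and 43.8% in the fibroblast libraries. For these, 47.4% of the differences were between 25 and 50 points and 22.6% reached 75 points, and 76.8% were intermediate in fibroblasts against 23.2% hypomethylated. The fibroblast replicates differed by 17.1 points on average at the DMCs more methylated in sperm and by 12.6 points at those more methylated in fibroblasts. At the other end of the scale, 54.7% of all positions differed by less than 10 points. The difference reached 25 points at 37307 further positions that were not called. Around the limit, 40240 DMCs had a difference of 25 to 30 points.

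DMCs of the 2 directions were also arranged differently along the chromosomes. Those more methylated in fibroblasts lay in runs with more DMCs, whereas those more methylated in sperm formed runs with fewer DMCs and a larger share of CpGs that were not DMCs. When DMCs of the same direction at most 1000 bp apart were joined, the 196522 DMCs more methylated in fibroblasts formed 20689 runs, with 9.50 DMCs per run, and 76.4% of them were in runs of at least 10. The 280896 DMCs more methylated in sperm formed 75607 runs, with 3.72 DMCs per run, and 35.5% were in runs of at least 10. DMCs alone in their run made up 2.76% of the first direction and 9.91% of the second. Within the runs of at least 10, the DMCs represented 82.8% of the tested positions spanned for the first direction and 58.0% for the second. The median length of these runs was 638 bp for the first direction and 1177 bp for the second. Runs of at least 50 DMCs numbered 496 and 130, respectively. RRBS positions are clustered by construction: 79.8% of all tested positions fell in groups of at least 10 when joined in the same way. The 2 directions also lay among tested positions of unlike density. The median number of other tested positions within 100 bp was 8 for the first direction and 4 for the second, against 7 for all positions. The part of this density in the runs was not tested. Counting every run once, 21.5% of the runs were more methylated in fibroblasts.

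Neighbouring CpGs were compared by distance, and their shares are to be read against those of all positions at the same distance. After a DMC more methylated in fibroblasts, the next tested CpG was also one in 88.4% of cases within 10 bp. Of all positions at this distance, 12.5% were DMCs of this direction. After such a DMC, the share was 69.7% at 100 to 300 bp, against 10.1% of all positions. It was 29.5% at 1000 to 3000 bp, against 6.94%, and 10.7% at 3000 to 10000 bp, against 6.00%. After a DMC more methylated in sperm, the next CpG was also one in 66.0% of cases within 10 bp, against 8.27% of all positions. At 100 to 300 bp this share was 57.4%, against 24.9% of all positions. At 3000 to 10000 bp it was 41.9%, against 33.6% of all positions at this distance. Neighbours of opposite directions were rare at short distance: within 10 bp, 0.144% of the CpGs that followed a DMC more methylated in fibroblasts were more methylated in sperm. The correlation of the differences of neighbouring CpGs, across pairs of CpGs that share their libraries, was 0.912 within 10 bp and 0.114 at 3000 to 10000 bp. CpGs within 10 bp can also lie on the same reads, so that their values are not separate measurements.

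**Figure D2:**
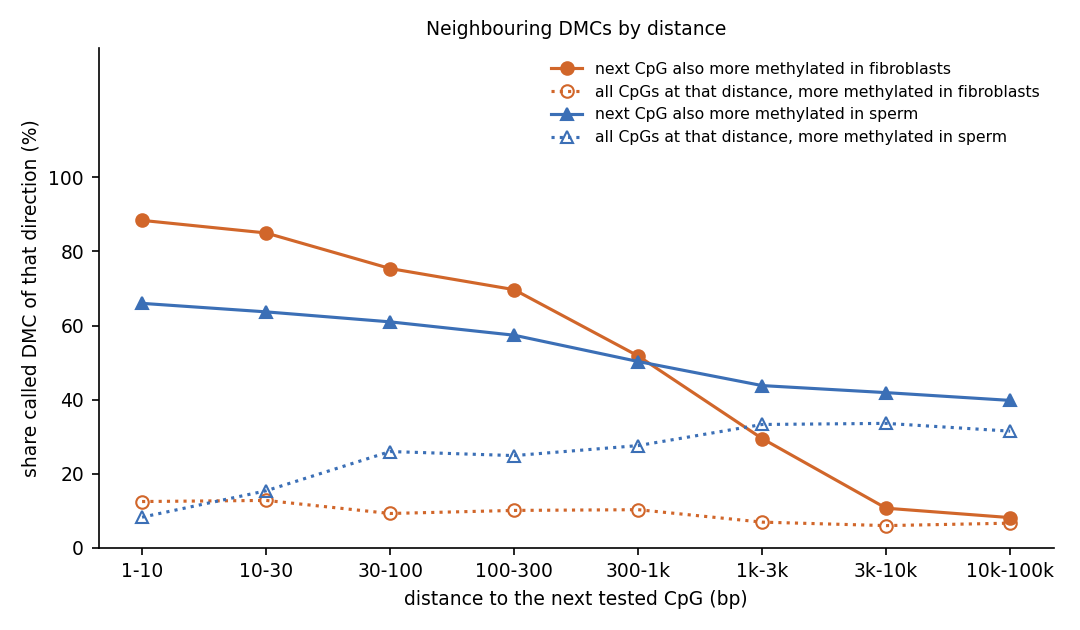
Share of CpGs (y axis, %) that were DMCs when the preceding tested CpG was a DMC of the same direction (solid lines), by the distance between them (x axis, bp), with the share among all CpGs separated by this distance (dotted lines). Orange stands for DMCs more methylated in fibroblasts and blue for DMCs more methylated in sperm. The orange solid line falls from 88.4% to 8.16%, close to its dotted line at 6.66%, whereas the blue one falls from 66.0% to 39.8%, with its dotted line at 31.5%.

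The direction of the mean difference changed with the local density of CpGs. Where CpGs were isolated, fibroblasts were less methylated than sperm on average, and where they were dense, fibroblasts were more methylated on average. Density was taken as the number of other tested positions within 100 bp on either side, which depends on the MspI fragments sequenced as well as on the genome. At the 47640 positions with no such neighbour, methylation was 86.8% and 86.2% in the sperm libraries and 61.9% and 63.1% in the fibroblast libraries, a difference of -24.0 points. Of these positions, 36.9% were DMCs more methylated in sperm and 4.78% DMCs more methylated in fibroblasts. With 6 to 10 neighbours, the means were 48.1% in sperm and 48.3% in fibroblasts, a difference of 0.272 points, and the libraries of the 2 cell types overlapped. With 16 to 20 neighbours, methylation was 5.54% in each sperm library and 14.1% and 14.3% in the fibroblast libraries. There, 10.9% of the positions were DMCs more methylated in fibroblasts and 0.664% DMCs more methylated in sperm. With over 20 neighbours, the values were 1.26% and 1.30% in sperm and 8.09% and 8.22% in fibroblasts. Sperm thus covered the wider range of levels, from 86.5% at isolated CpGs to 1.28% at the densest, against 62.5% to 8.15% in fibroblasts. Intermediate CpGs were most frequent among isolated positions in fibroblasts, at 50.0%, against 7.51% in sperm. DMCs more methylated in fibroblasts were most frequent with 6 to 10 neighbours, at 13.9%. Of the sperm-hypomethylated CpGs, 53.9% of those without neighbours were not hypomethylated in fibroblasts, against 8.55% with over 20 neighbours. Of the sperm-hypermethylated CpGs, 59.2% and 20.9% (of 220), respectively, were not hypermethylated in fibroblasts. The part of the level in sperm in these differences was not tested.

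**Figure D3:**
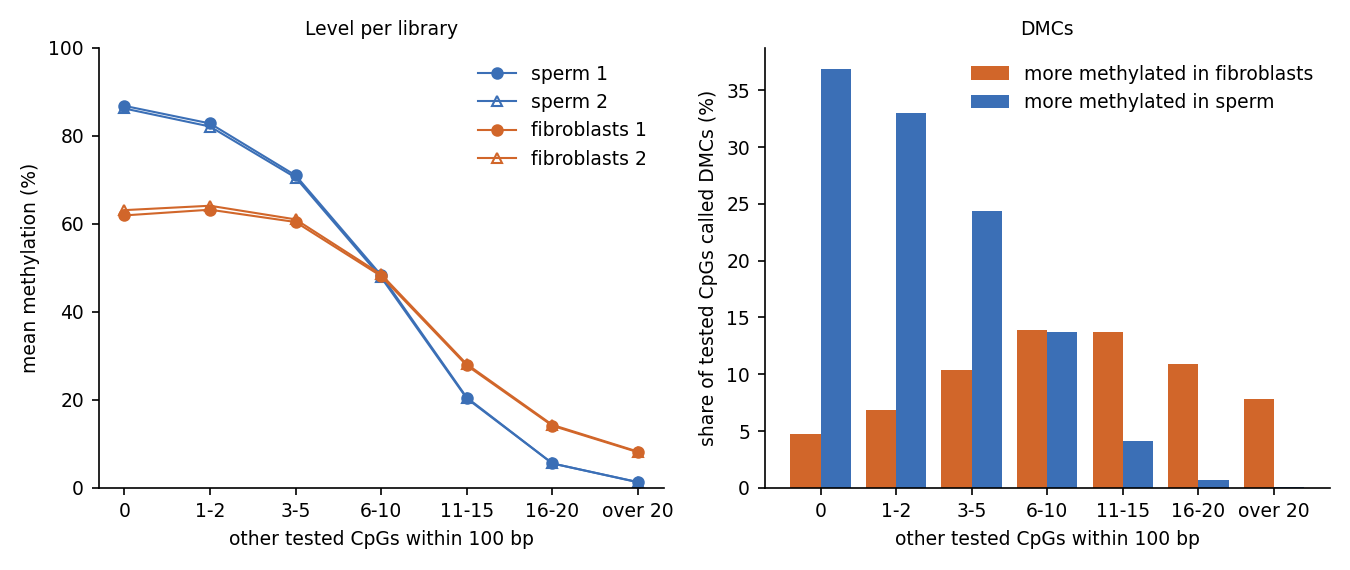
Mean methylation of each library (left, %) and share of the tested CpGs called DMCs in each direction (right, %), by the number of other tested CpGs within 100 bp (x axes). Circles and triangles are replicates 1 and 2. The lines of the 2 cell types cross at 6 to 10 neighbours, where both are near 48%, and the DMCs more methylated in sperm decrease from 36.9% to 0.0993% of the CpGs as density increases.

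Coverage moved with the direction of the difference as well. Positions with a mean coverage of 50 to 100 reads over the 4 libraries had 22.2% and 20.4% methylation in sperm and 55.7% and 55.5% in fibroblasts. Those with a mean coverage of 100 to 500 reads had 23.3% and 20.9% in sperm and 64.0% and 63.6% in fibroblasts. DMCs more methylated in fibroblasts made up 68.4% and 82.6% of these positions, respectively, against 11.5% of all positions. DMCs more methylated in sperm made up 2.16% and 0.711% of them, against 16.4% of all positions. There were 10050 positions in the first class and 12806 in the second, and together they held 8.88% of the DMCs more methylated in fibroblasts and 0.110% of those more methylated in sperm. Intermediate CpGs were frequent among them in sperm too, at 32.8% and 42.2%. At positions with a mean coverage of 5 to 10 reads, the difference was -5.37 points. The part of coverage in these differences and in the share of positions called was not tested.

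The runs with the most DMCs are given with their UMD3.1 coordinates, without the genes and exons around them, for which no annotation of this assembly was used here. They were named for their number of DMCs, so that their levels are a description. Among the runs more methylated in fibroblasts, some were covered like the bulk of the positions and others more deeply. At chr18:62377768-62380903, all 166 tested CpGs were DMCs, with mean levels of 1.55% and 2.44% in sperm and 94.9% and 94.3% in fibroblasts. At chr25:39012066-39015354, all 190 tested CpGs were DMCs, with 4.43% and 7.68% in sperm and 96.3% and 95.0% in fibroblasts. At chr18:63686152-63692328, 227 of 266 CpGs were DMCs, with 8.78% and 9.96% in sperm and 71.8% and 72.9% in fibroblasts, and 104 of the CpGs were intermediate in fibroblasts. The median coverage of these 3 runs was 20, 16 and 17 reads.

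The runs on chromosomes 3 and 4 were deeply covered. At chr3:1027952-1049243, 238 of 305 CpGs were DMCs, with 21.9% and 18.4% in sperm, 58.6% and 54.1% in fibroblasts and a median coverage of 98 reads. At chr4:41474120-41497155, 199 of 270 CpGs were DMCs, with 21.8% and 18.4% in sperm and 56.4% and 54.4% in fibroblasts, and the median coverage was 57.5 reads. In these 2 runs, 278 and 245 CpGs were intermediate in fibroblasts.

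Among the runs more methylated in sperm, 4 of the 5 with the most DMCs held a mixture of DMCs and other CpGs. At chr17:74828033-74840428, 174 of 322 CpGs were DMCs, with 97.4% methylation in each sperm library and 56.8% and 59.9% in the fibroblast libraries. At chr29:51127456-51140940, 150 of 291 CpGs were DMCs, with 94.7% and 97.6% in sperm and 62.9% and 64.2% in fibroblasts. At chr22:59415881-59430944, 128 of 311 CpGs were DMCs, with 98.5% and 97.7% in sperm and 71.7% and 72.0% in fibroblasts. At chr20:71283727-71298082, 124 of 303 CpGs were DMCs, with 98.0% and 97.3% in sperm and 71.5% and 71.1% in fibroblasts. In these 4 runs single CpGs reached 100% in fibroblasts, and others were at 5.0% or less. The run at chr29:50250052-50255165 differed from them, with 125 DMCs among 138 CpGs, 97.4% and 97.9% in sperm and 18.0% and 25.1% in fibroblasts. Another run, with fewer DMCs and singled out after its values were seen, changed throughout: at chr5:117093989-117099337, all 111 CpGs were DMCs, at 98.6% and 96.2% in sperm and at 4.31% and 7.27% in fibroblasts. The fibroblast replicates were closer to each other than to sperm in each of these runs.

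In 3 gene loci that the study drew with coordinates, fibroblasts were the more methylated. The study selected them for hypomethylation in sperm, DDX4 and SYCP3 with the help of DMCs from these libraries, so that they are no independent evidence of the direction. The study also assayed CpGs of the 3 loci by bisulfite pyrosequencing, at LSM4 at CpGs that its RRBS did not cover. It reported lower methylation in sperm than in fibroblasts and liver at every position assayed. DDX4 encodes a germline RNA helicase. All 20 tested CpGs, at chr20:23444347-23445067, were DMCs. They were at 0% in both sperm libraries and at 88.4% and 88.5% on average in the fibroblast libraries, with a median coverage of 9 reads. SYCP3 encodes a protein of the synaptonemal complex, which holds homologous chromosomes together in meiosis. All 18 tested CpGs, at chr5:65888681-65888963, were DMCs, with means of 0.365% and 0.317% in sperm and 82.2% and 74.9% in fibroblasts. LSM4 encodes a subunit of a complex that binds U6 small nuclear RNA. Of its 36 tested CpGs, 5 were DMCs, all more methylated in fibroblasts, at chr7:4816828-4817023. These 5 were at 4.44% in each sperm library and at 98.5% and 86.7% in the fibroblast libraries. Over all 36 CpGs, LSM4 was at 1.26% and 0.772% in sperm and at 14.3% and 12.4% in fibroblasts. With at least 10 reads in each library, 1 CpG of DDX4 remained, a DMC at 0% in both sperm libraries and at 30.8% and 71.4% in the fibroblast libraries. Its difference was 51.1 points, against 88.5 points over the 20 CpGs. At SYCP3, 17 CpGs remained, each of them a DMC, whereas the 21 CpGs that remained at LSM4 included no DMC. In the drawn part of the satellite repeat BTSAT4 on chromosome 9, no position met the limits of coverage.

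**Figure D4:**
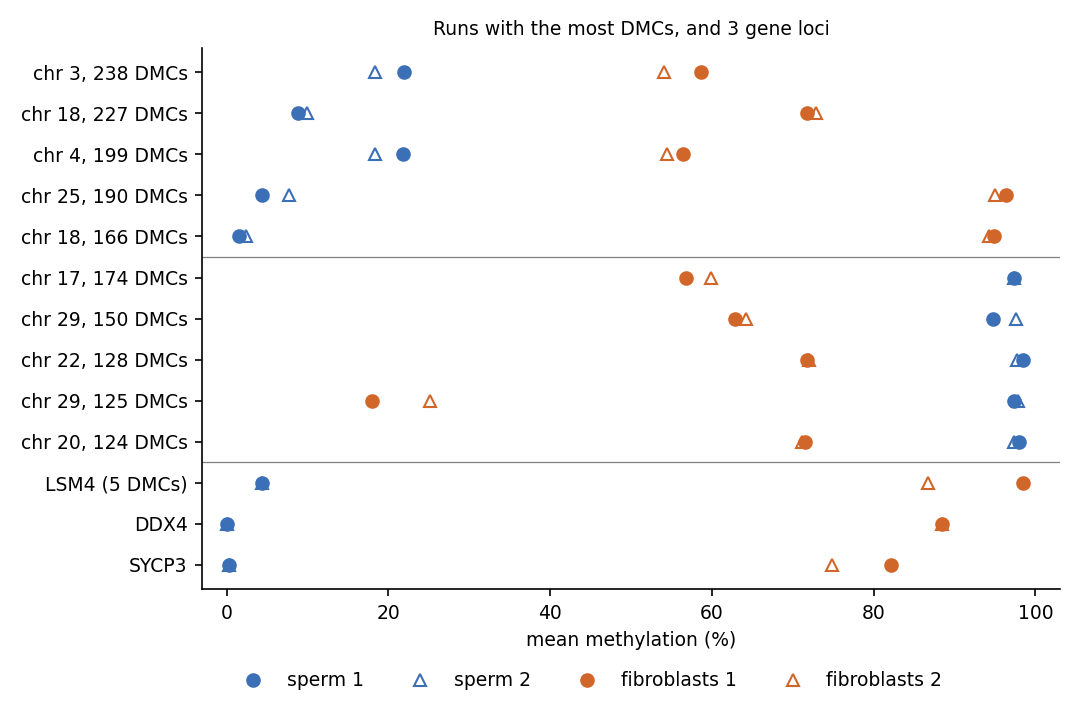
Mean methylation (x axis, %) in each library of the 5 runs with the most DMCs more methylated in fibroblasts (top), the 5 runs with the most DMCs more methylated in sperm (middle) and the DMCs of 3 gene loci (bottom). Circles and triangles are replicates 1 and 2, blue for sperm and orange for fibroblasts. Sperm stays below 22% or above 94% throughout, while fibroblasts lie between 54.1% and 72.9% in 7 of the 10 runs.

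By chromosome, the difference was not uniform. Both fibroblast libraries were below both sperm libraries on 21 autosomes and above on 5 (7, 8, 9, 10 and 27), and the libraries overlapped on 3 (1, 18 and 24). Chromosome 27 was at one end, with 46.6% and 46.4% in sperm and 53.4% and 54.1% in fibroblasts, a difference of 7.24 points. DMCs more methylated in fibroblasts made up 24.7% of its positions, the highest share, followed by 17.9% on chromosome 8 and 15.1% on chromosome 9. The lowest shares were 7.56% on chromosome 11, 8.03% on chromosome 5 and 8.12% on chromosome 26. Chromosome 29 was at the other end, with 60.7% and 60.3% in sperm and 52.2% and 52.6% in fibroblasts, a difference of -8.08 points. DMCs more methylated in sperm made up 21% of its positions, the highest share, followed by 20.3% on chromosome 20 and 19.8% on chromosome 5. Chromosomes 7, 10 and 8 had the lowest shares of this direction, at 10.9%, 11% and 12.4%. DMCs more methylated in fibroblasts were the majority on 6 autosomes and those more methylated in sperm on 23.

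The deeply covered positions were unevenly distributed among chromosomes. Positions with a mean coverage of at least 50 reads made up 7.15% of chromosome 27 and 5.78% of chromosome 8, against 0.294% of chromosome 17. Without them, the difference on chromosome 27 was 4.67 points and the share of DMCs more methylated in fibroblasts was 20.7%, still the highest of the autosomes. On chromosome 8 the difference was 0.939 points and this share 14.2%. On chromosome 1 the difference moved from 0.416 to -0.542 points, and on chromosome 18 from 0.0314 to -0.0545 points.

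**Figure D5:**
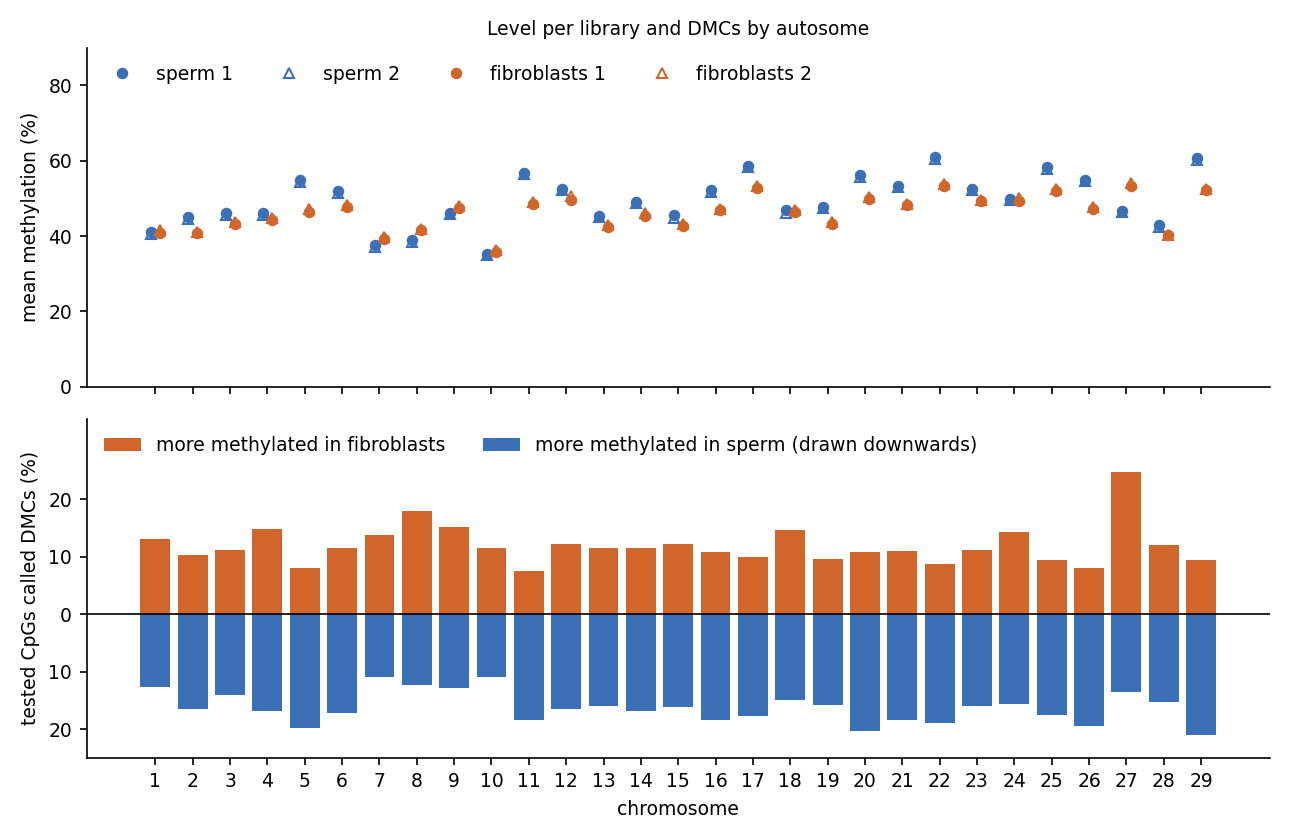
Mean methylation of each library (top, %) and share of the tested CpGs called DMCs in each direction (bottom, %, with DMCs more methylated in sperm drawn downwards), for the 29 autosomes (x axis). Circles and triangles are replicates 1 and 2. Chromosome 27 has the largest share of DMCs more methylated in fibroblasts (24.7%), and chromosome 29 the largest share more methylated in sperm (21%).

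Bovine autosomes are acrocentric, and the 2 ends of the assembled chromosomes differed. In the last 5 Mb, methylation was 69.6% and 69.1% in sperm and 62.1% and 62.6% in fibroblasts, with 22.3% of the positions more methylated in sperm and 11.6% in fibroblasts. In the first 5 Mb, it was 51.4% and 51.1% in sperm and 48.7% and 49.2% in fibroblasts. Between the ends, it was 42.5% and 42.1% in sperm and 40.1% and 40.5% in fibroblasts. The difference was thus -7.02 points in the last 5 Mb, -2.29 in the first 5 Mb and -1.97 in between.

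At the scale of 1 Mb, both directions were frequent. Of 1600 windows with at least 200 positions, both fibroblast libraries were above both sperm libraries in 658 (41.1%) and below in 845 (52.8%). The window with the lowest difference was at 71 to 72 Mb of chromosome 13, with 88.2% and 88.1% in sperm and 49.9% and 50.6% in fibroblasts (-37.9 points). The next were at 109 to 110 Mb of chromosome 3 (-34.1 points) and 35 to 36 Mb of chromosome 29 (-32.7 points). None of these 3 windows held a position with a mean coverage of at least 50 reads. The window with the highest difference was at 8 to 9 Mb of chromosome 6, with 6.48% and 7.19% in sperm and 64.3% in both fibroblast libraries (57.4 points). The next were at 100 to 101 Mb of chromosome 2 (45.7 points) and at 64 to 65 Mb of chromosome 3 (43.8 points). Deeply covered positions made up 47.8%, 46.4% and 44.9% of these 3 windows. Without them, the differences were 43.3, 45.1 and 42.1 points. The highest window held 201 positions and the lowest 232, close to the limit of 200. Among windows with at least 500 positions, the highest difference was at 0 to 1 Mb of chromosome 14 (43.6 points). The lowest was then at 109 to 110 Mb of chromosome 3 (-34.1 points).

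The extent to which sperm-methylated CpGs kept their methylation in fibroblasts varied from region to region. Of the 1600 windows of 1 Mb with at least 200 positions, 1068 held at least 100 CpGs hypermethylated in sperm. In these 1068 windows, the mean level of such CpGs was between 93.7% and 98.5% in sperm, a range bounded by their choice. In fibroblasts it ranged from 40.4% to 90.5%, with a median of 74.2%. The lowest window was at 5 to 6 Mb of chromosome 25, with 39.1% and 41.7% in the fibroblast libraries at 113 such CpGs. The highest was at 37 to 38 Mb of chromosome 11, with 90.1% and 90.9% at 179 such CpGs. The share of these CpGs that were not hypermethylated in fibroblasts ranged from 15.6% to 96.5%, with a median of 44.3%. The 2 fibroblast libraries, from different animals, ranked the windows alike (r = 0.964 across 1068 windows, which share their libraries). Adjacent windows resembled each other little, with a correlation of 0.199 across 796 pairs.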

How the data were processed

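Per the labels' processing notes, reads went through FastQC, Trim Galore 0.3.7, Bismark 0.14.3 with Bowtie, and methylKit, on UMD3.1. The deposited tables give, per CpG and library, the counts of uniquely mapped reads (coverage), not normalized, and the authors gave the methylated share as a percent to 1 decimal, further decimals being cut off. Only uniquely mapped reads count, which leaves out reads of repeats that map to several places. Both cell types had the same number of PCR cycles. Methylated reads were recovered as coverage times this percent, rounded.

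Summed coverage was 51857496 and 60569057 reads for sperm and 65899554 and 78890776 for fibroblasts. Reads are not independent molecules, and 2 animals per cell type say little about the variation between animals. Groups followed the cell type in the labels. DMCs were tested on summed reads without covariates (logistic regression, likelihood ratio, Benjamini-Hochberg adjustment), and averages by exact permutation over libraries. Levels of regions are unweighted means over positions. Alternatives were Fisher's exact test, edgeR's quasi-likelihood test, a Cochran-Mantel-Haenszel test with the replicate number as a block, other thresholds, coverage limits and joining distances, and leaving out each library. A limit on mean coverage was added after seeing the data. Same-numbered libraries did not deviate together (r = 0.000463 across positions), and the labels do not link them. The tests were tested on simulated data. The simulated replicates held no variation between animals, so that they cannot show how the tests behave in its presence.

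The runs named are the 5 with the most DMCs of each direction, the chromosomes and windows the 3 highest and 3 lowest, and the loci those that the study drew with coordinates. The comparison, its members and these rules were chosen with earlier results of these data known. Lists of genes were not used, since no annotation of UMD3.1 was used here. Python 3.11.15 (numpy 2.4.6, scipy 1.17.1, pandas 2.3.3; matplotlib 3.10.9 for figures and numba 0.67.0 for loops) and R 4.3.3 (edgeR 4.0.16, limma 3.58.1) were used.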

Additional observations from a re-analysis of the deposited data

Results flagged for a closer look

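Positions with over 500 reads in each of the 4 libraries lay outside the limits of coverage of the comparison. There were 5509 of them on the autosomes, with 24.6% and 21.5% methylation in the sperm libraries and 68.7% and 68.2% in fibroblasts. The difference was 45.4 points, against -3.27 points at the positions compared, and this contrast, in data outside the comparison, is what called for a closer look. It continued the values at a mean coverage of 50 to 100 reads (34.3 points) and of 100 to 500 reads (41.7 points). The study itself reported a lower average methylation in sperm than in fibroblasts at CpGs covered by more than 500 reads. No test was made on these positions here, and the part of coverage in the difference was not tested.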

How the results depend on the processing

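The number of DMCs, 477418, was 212396 with edgeR's quasi-likelihood test, whose calls were 44.5% of them, and 283509 with a difference of at least 50 points. At an unadjusted p below 0.05 and 25 points, edgeR's test gave 442778 positions. The replicate block gave 443962 DMCs, with 42.8% more methylated in fibroblasts, and Fisher's exact test 442887. Leaving out each library in turn gave 386943 to 448082 DMCs. The share more methylated in fibroblasts, 41.2%, was 43.7% at a coverage of at least 10, 39.3% at a coverage of at most 100, 39.0% at a mean coverage below 50, 52.5% with edgeR's test, 47.9% with a difference of at least 50 points, 21.5% when each run counted once, and 40.8% to 44.4% without each library. The average difference turned to 0.328 points when weighted by coverage and was -3.51 to -3.02 points without each library.

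DMCs more methylated in fibroblasts in runs of at least 10 were 76.4%, and those more methylated in sperm 35.5%. These percentages were 70.0% and 26.9% at a coverage of at least 10, 73.0% and 26.8% with a difference of at least 50 points, and 78.1% and 37.0% with coordinates 1 bp apart joined. They were 62.7% and 19.4% with runs joined within 200 bp, and 82.2% and 62.3% within 5000 bp. Without each library they were 74.5% to 75.3% and 31.6% to 34.0%. The first direction had the larger share in such runs in each of these settings. At LSM4, the difference was -0.0708 points at a coverage of at least 10. With classes split at 10% and 90%, 57.7% of sperm-hypermethylated CpGs were intermediate in fibroblasts and 5.07% of sperm-hypomethylated CpGs were hypermethylated. The cause of these changes was not tested. Of the values for chromosomes, windows, densities, classes, runs and loci, 1 turned under an alternative, 56 were counted as moved and 54 were not. The measure was the SD of the leave-one-out values, which were themselves among the values counted. Those for windows were counted as moved without such a measure. This tally therefore does not measure how robust the results are. Low coverage limits single CpGs, and 2 animals per cell type limit statements beyond these libraries.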

Other observations

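The same CpG can stand at coordinates 1 bp apart in different tables, as the cytosine of one strand or of the other. Of 4743343 autosomal positions in the union of the 6 tables, 865361 directly followed another, although no single table of the 6 held adjacent positions. Joining them gave 1891279 CpGs covered by 5 to 500 reads in the 4 libraries, 179532 more than with the coordinates as deposited. The gained CpGs were sparser in reads, with a median of 10 and 11 in sperm and 14 and 16 in fibroblasts. Their methylation was 60.2% and 59.6% in sperm and 48.1% and 49.3% in fibroblasts. Of these CpGs, 25.3% were DMCs more methylated in sperm and 10.3% DMCs more methylated in fibroblasts, whereas the shares among the positions tested were 16.4% and 11.5%. With the joined coordinates, the average difference between fibroblasts and sperm was -4.02 points and 541835 CpGs were DMCs.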
